A study of Rattus norvegicus with 24 samples.

Results

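The genes Th, Ddc, Slc6a3 and Slc18a2, which midbrain dopamine neurons use to make and handle their transmitter, were followed through 24 RNA-seq libraries of rat brain. They were chosen by name: Th (ENSRNOG00000020410), Ddc (ENSRNOG00000004327), Slc6a3 (ENSRNOG00000017302) and Slc18a2 (ENSRNOG00000008890), that is 4 of the 17323 genes in the table, and all 4 passed the filter on low counts. The libraries came from 8 male F1 rats whose parents were of the inbred F344 (Fischer) and Brown Norway (BN) lines, with 1 library per rat from hand-dissected ventral tegmental area (VTA), nucleus accumbens core (NAc core) and nucleus accumbens shell (NAc shell). In cross A (rats 1, 2, 11 and 15) the father was F344 and the mother BN, and in cross B (rats 3, 4, 13 and 16) the parental lines were exchanged. By the labels, rats 1, 2, 3 and 4 were injected once daily with 0.4 mg/kg nicotine (NIC) for 4 days, and rats 11, 13, 15 and 16 with saline (SAL), so each cross held 2 rats of each injection. Later, intravenous nicotine (30 µg/kg an infusion) was received by all rats of either injection over 6 sessions of 10 infusions, and tissue was taken on day 15. No group was therefore free of nicotine and all rats were males. The levels below are TMM-normalised CPM, that is, counts scaled to a common library size.

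Th encodes tyrosine hydroxylase, the rate-limiting enzyme of catecholamine synthesis, which turns tyrosine into L-DOPA with tetrahydrobiopterin as its cofactor. Ddc encodes aromatic L-amino acid decarboxylase, which turns L-DOPA into dopamine and also acts in serotonin synthesis. Slc18a2 encodes the vesicular monoamine transporter VMAT2, which loads dopamine into synaptic vesicles, and Slc6a3 encodes the dopamine transporter, which takes released dopamine back up and is the most selective marker of dopamine neurons among them. The cell bodies of the mesolimbic dopamine neurons lie in the VTA and their axons end in the NAc, where most neurons are striatal projection neurons that carry dopamine receptors; nicotine is known to excite the VTA neurons through nicotinic acetylcholine receptors.

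The stretches upstream of the annotated starts are shown because the levels of the 4 genes varied together across the VTA libraries. They are RefSeq sequences of the GRCr8 assembly, a later build than the Rnor 6 the counts were made with, and each is the 250 bases before the start on the gene's own strand. Th lay on the minus strand at chr1:207508219-207508468, Slc18a2 on the plus strand at chr1:268399771-268400020, Slc6a3 on the minus strand at chr1:31578963-31579212, and the first of 3 Ddc starts on the minus strand at chr14:90682784-90683033. Capitals mark a match to the cAMP response element TGACGTCA (bound by CREB family factors) or, in Ddc, to the NGFI-B response element AAAGGTCA (bound by NR4A family factors such as Nr4a2) on the opposite strand.
Th: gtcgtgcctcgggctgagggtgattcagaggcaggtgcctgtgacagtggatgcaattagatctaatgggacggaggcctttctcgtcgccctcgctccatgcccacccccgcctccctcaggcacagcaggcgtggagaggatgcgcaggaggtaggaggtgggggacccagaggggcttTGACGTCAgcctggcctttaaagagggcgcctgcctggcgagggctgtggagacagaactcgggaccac
Slc18a2: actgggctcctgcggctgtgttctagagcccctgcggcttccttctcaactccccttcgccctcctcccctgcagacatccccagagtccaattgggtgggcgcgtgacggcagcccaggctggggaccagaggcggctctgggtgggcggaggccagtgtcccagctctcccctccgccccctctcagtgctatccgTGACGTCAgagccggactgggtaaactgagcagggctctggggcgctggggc
Slc6a3: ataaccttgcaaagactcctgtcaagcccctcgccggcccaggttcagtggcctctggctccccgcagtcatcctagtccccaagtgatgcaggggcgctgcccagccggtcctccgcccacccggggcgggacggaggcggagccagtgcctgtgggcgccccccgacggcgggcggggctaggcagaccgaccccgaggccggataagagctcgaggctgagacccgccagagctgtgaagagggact
Ddc: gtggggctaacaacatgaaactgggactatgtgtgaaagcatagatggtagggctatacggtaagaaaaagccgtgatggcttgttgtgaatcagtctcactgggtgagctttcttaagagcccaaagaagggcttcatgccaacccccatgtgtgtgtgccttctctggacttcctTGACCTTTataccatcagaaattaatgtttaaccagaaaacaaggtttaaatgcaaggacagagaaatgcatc
The motifs were searched on both strands of the 300 bases from 250 before to 50 after each start. The cAMP response element began at position -69 in Th and at position -52 in Slc18a2, counted back from the start. It is in 1.83% of the 33465 RefSeq windows of that length, and these letters were not in the Slc6a3 window or the 3 Ddc windows. The NGFI-B response element, in 1.43% of windows, was matched in Ddc alone, at position -73. There it overlapped a match to the TATA box TATAAA at -68 (14.2% of windows), which was likewise on the opposite strand. The AP-1 element TGANTCA (7.33% of windows) was matched at -230 in Th and at -163 in Ddc. All 4 genes held an E-box, CANNTG, which 72.1% of windows hold. A match describes letters in a window and does not show binding.

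The 24 libraries held 17563458 to 24405856 counts each, 17856705 to 24405856 in the VTA, so that VTA values of the 4 genes rested on at least 3571 counts in 7 rats and several NAc values on fewer than 10. The library labelled VTA of rat 2 stood apart. Its low levels of the 4 genes, which mark the dopamine neurons of the VTA, go against that label in part, and whether it holds the same tissue as the other VTA libraries was not tested. Its 354 counts of Th, 351 of Ddc, 376 of Slc6a3 and 72 of Slc18a2 compare with 12204 to 24146, 4197 to 7902, 14249 to 27403 and 3571 to 6244 in the other 7 VTA libraries. Its total of 17856705 counts was the lowest of the 8 VTA libraries, a difference far smaller than that in the 4 genes, and the differences of the 4 genes between regions, crosses and injections in the VTA are given with and without it. Tests of other genes include it. Each library came from 1 rat, and p-values within a region rest on the spread between rats. The main fits between regions took libraries of the same rat as independent, and fits with rat as a block are given at the end.

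In the VTA the 4 genes were abundant in 7 of 8 rats, and in both parts of the NAc they were at a small share of that. Th ran from 543 to 1088 CPM in the 7 libraries with a median of 803, against 1.02 to 2.39 CPM in the NAc core and 1.52 to 3.35 CPM in the NAc shell. Ddc ran from 187 to 362 CPM with a median of 287, against 10.7 to 16.1 CPM in the core and 11.7 to 16.3 CPM in the shell. The enzyme that follows tyrosine hydroxylase thus kept a level in the NAc of 4.61% (core) and 4.66% (shell) of its VTA median, where Th kept 0.215% and 0.244%. Slc6a3 ran from 703 to 1312 CPM with a median of 1003, and in the NAc it was at 0 to 0.548 CPM (core) and 0.137 to 0.804 CPM (shell). Slc18a2 ran from 159 to 295 CPM with a median of 242, and from 0.0498 to 1.497 CPM in the core and 0.356 to 3.72 CPM in the shell. No VTA library overlapped any NAc library for any of the 4, that of rat 2 included. In tissue, fewer cells of a type and less RNA per cell cannot be told apart.

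**Figure D1:**
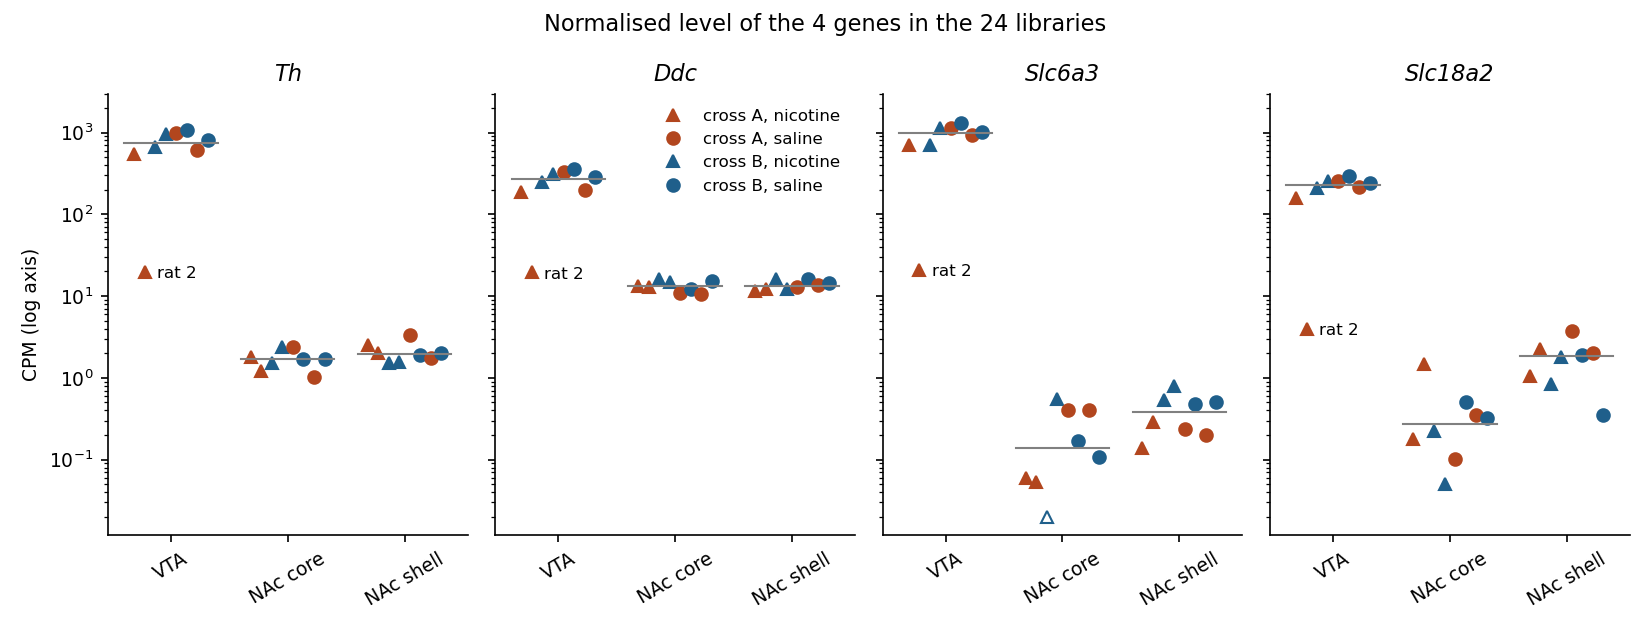
Normalised level (CPM, log axis) of Th, Ddc, Slc6a3 and Slc18a2 in each of the 24 libraries, by region; orange is cross A, blue is cross B, triangles are nicotine-injected and circles saline-injected rats, the grey line is the median of 8, and the open triangle is a count of 0 drawn at the foot of the axis. The VTA library of rat 2 lies at 4.01 to 20.9 CPM, below the 7 other VTA libraries and above every NAc library in each panel.

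All 4 genes were called higher in the VTA than in the NAc core by edgeR's quasi-likelihood test at an adjusted p under 0.05, where 61.8% of the 16289 genes tested were called and 31.1% were called higher in the VTA. The log2 difference was 8.67 ± 0.62 (SE, n = 8 and 8) for Th (adjusted p = 2.86e-09) and 4.16 ± 0.39 for Ddc (adjusted p = 6.42e-08). It was 11.85 ± 0.79 for Slc6a3 (adjusted p = 1.23e-09) and 8.96 ± 0.73 for Slc18a2 (adjusted p = 1.48e-08). Of all genes tested, only 2 had a larger positive difference than Slc6a3, which ranked 3, and Slc18a2 ranked 6, Th 7 and Ddc 98. The 8 VTA libraries lay above the 8 core libraries for each of the 4, which was so for 11.6% of genes. Leaving out rat 2 narrowed the errors and gave 8.80 ± 0.23 for Th, 4.34 ± 0.16 for Ddc, 11.89 ± 0.31 for Slc6a3 and 9.85 ± 0.23 for Slc18a2.

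Against the NAc shell, all 4 genes were again called higher in the VTA by the same test, with 59.8% of genes called and 30.5% called higher in the VTA. The VTA libraries are common to both comparisons. The log2 difference was 8.41 ± 0.61 for Th (adjusted p = 4.99e-09), 4.14 ± 0.38 for Ddc (adjusted p = 8.06e-08), 11.07 ± 0.73 for Slc6a3 (adjusted p = 1.72e-09) and 6.87 ± 0.63 for Slc18a2 (adjusted p = 6.52e-08). All VTA libraries were above all shell libraries for each gene, as for 11.7% of genes. Without rat 2 the differences were 8.61 ± 0.23 for Th, 4.31 ± 0.16 for Ddc, 11.23 ± 0.27 for Slc6a3 and 7.14 ± 0.28 for Slc18a2. The fitted differences of Slc6a3 rest on 0 to 11 counts per core library and 3 to 16 per shell library. In the core, 5 of 8 libraries were at or under 3 counts of Slc6a3, the number a count of 0 allows, and the library of rat 3 had none, which allows up to 0.168 CPM by counting error alone. For Slc18a2, 3 of 8 core libraries were at or under 3 counts.

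Between the 2 parts of the NAc, Slc18a2 was the gene of the 4 that passed the test. Its 8 core libraries held 1 to 28 counts (median 0.274 CPM) and its 8 shell libraries 7 to 79 counts (median 1.84 CPM). Of the core libraries, 6 lay below all shell libraries, and the highest one, that of rat 2 at 1.497 CPM, lay within the shell range, as did that of rat 13. The core minus shell log2 difference was -2.10 ± 0.52 (SE, n = 8 and 8, edgeR adjusted p = 0.00782), and -2.73 ± 0.49 without rat 2 (adjusted p = 0.0011); 15.1% of genes were called between core and shell and 7.21% were called higher in the shell. The call held without each rat in turn, with adjusted p up to 0.0388 when rat 11, the highest shell library, was left out. Th (-0.28 ± 0.21, adjusted p = 0.435), Ddc (-0.04 ± 0.10, adjusted p = 0.838) and Slc6a3 (-0.82 ± 0.54, adjusted p = 0.358) did not pass. Markers of cholinergic neurons differed in the same direction: Chat, which makes acetylcholine, was at -1.08 (adjusted p = 0.000874) and Slc18a3, the vesicular acetylcholine transporter, at -1.17 (adjusted p = 0.000586), with the sum of both at 13.5 to 21.3 CPM in the core and 20.0 to 54.8 CPM in the shell. Other lists differed between core and shell as well. Of 7 other dopamine neuron genes, 3 were called higher in the shell (Sncg, Ntsr1 and Dlk1) and 2 in the core. Of 6 midbrain transcription factor genes, 2 were called higher in the shell (Lmx1a and Otx2) and 1 in the core. Higher in the shell too were 2 of 5 cofactor supply genes (Gchfr and Pcbd1). So were 2 of 4 glutamate and GABA neuron genes (Slc32a1 and Gad1). By contrast, 4 of 7 striatal projection neuron genes were called higher in the core. The part of these cells in the Slc18a2 difference was not tested.

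**Figure D2:**
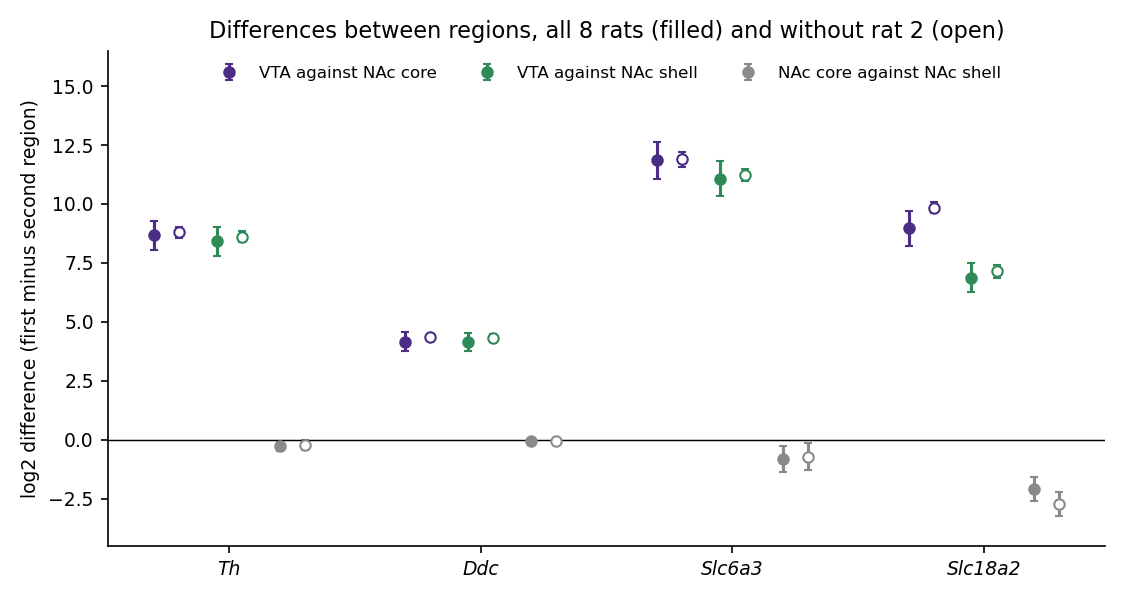
Log2 difference between regions (first minus second region named) for each of the 4 genes, with its standard error, from the fit on all 8 rats (filled) and without rat 2 (open). The VTA differences run from 4.14 for Ddc to 11.85 for Slc6a3, and among the NAc differences that of Slc18a2, -2.10, is the one that passed the test.

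The ratio of each gene to Th within a library, in which library scaling cancels, showed that the 4 genes did not fall in step between VTA and NAc. The ratio of Ddc to Th was 0.318 to 0.371 in the 7 VTA libraries, 4.56 to 10.45 in the core and 3.87 to 10.6 in the shell. Its log2 value was lower in the VTA than in the core by 4.34 (SD over rats 0.52) and than in the shell by 4.11, in 8 of 8 rats (exact paired permutation test, two-sided, adjusted p = 0.0117 for both, from a raw p = 0.00781, the smallest that 8 rats allow). The ratio of Slc6a3 to Th was higher in the VTA in 8 of 8 rats, by 3.62 on the log2 scale against the core and 2.73 against the shell (same exact test, adjusted p = 0.0117 for both). The ratio of Slc18a2 to Th did not differ past the threshold from the core (log2 difference 0.69, adjusted p = 0.281 by the exact test), and against the shell it was lower in the VTA in 7 of 8 rats (-1.36, adjusted p = 0.0281), a call that was lost at adjusted p = 0.05625 when any of rats 2, 3, 4, 11, 13 or 15 was left out of the exact test. Without rat 2 the log2 differences were -4.48 for Ddc, 3.56 for Slc6a3 and 1.16 for Slc18a2 against the core, where that of Slc18a2 had an adjusted p = 0.0625 by the exact test, and -4.33, 2.72 and -1.21 against the shell. These p-values were adjusted over 6 ratios and regions. NAc ratios of Slc6a3 and Slc18a2 carry the counting error of single-digit counts.

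**Figure D3:**
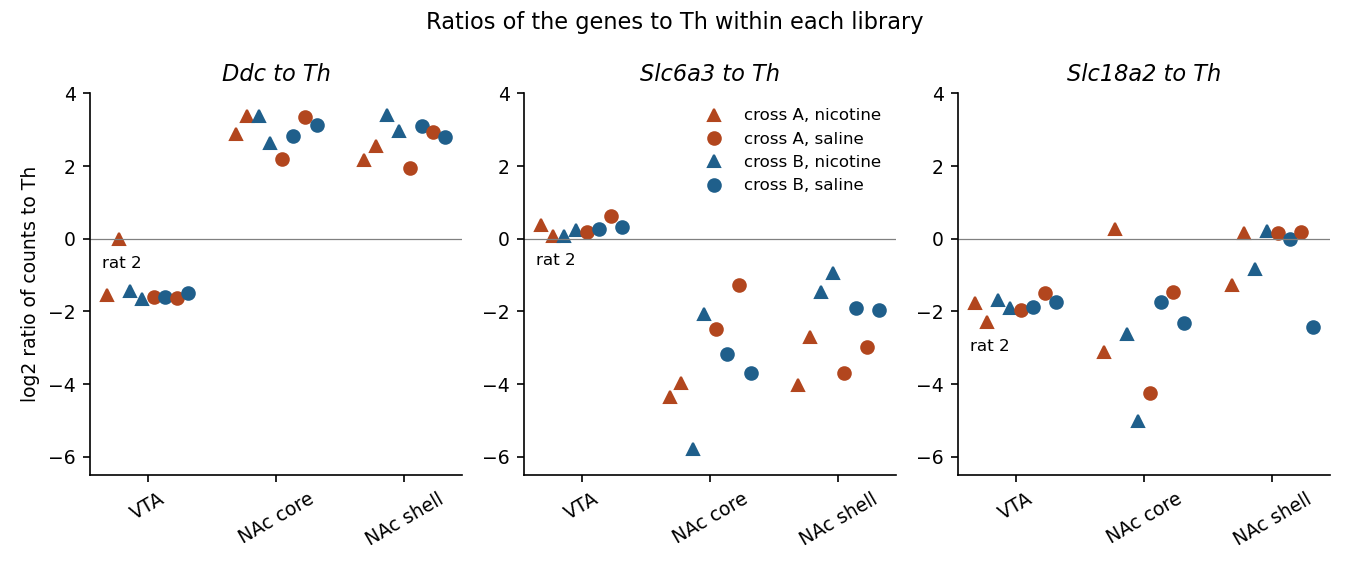
Log2 ratio of the counts of Ddc, Slc6a3 and Slc18a2 to those of Th in each library, by region; colours and symbols give cross and injection, and the line marks equal counts. Ddc is under Th in the VTA libraries, barely so in that of rat 2, and over it in all NAc libraries, while Slc6a3 is over Th in the VTA and under it in the NAc.

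Among the 7 VTA libraries other than that of rat 2, the levels of the 4 genes varied together from rat to rat. The highest library exceeded the lowest 2.01-fold for Th, 1.94-fold for Ddc, 1.87-fold for Slc6a3 and 1.86-fold for Slc18a2. Rat 13 was highest for all 4 genes, and rat 1 was lowest for Th, Ddc and Slc18a2 and within 1 CPM of the lowest for Slc6a3, where rat 3 was at 703 CPM. The SD of log2 CPM was 0.39 for Th, 0.36 for Ddc, 0.35 for Slc6a3 and 0.29 for Slc18a2, against a median of 0.21 over all genes. Pearson's r of log2 CPM was 0.80 to 0.98 and Spearman's rho 0.857 to 1 over the 6 pairs of genes (n = 7), and all 6 passed with adjusted exact permutation p of at most 0.0373 for r and 0.0238 for rho. Without the 2 libraries farthest from the median, r was 0.75 to 0.98. The genes share each library's scaling and makeup, and each preparation batch held too few VTA libraries for a value of its own. No r is given over all 8 because the library of rat 2 lies apart. In the NAc, where counts were low, no pair passed: r was -0.72 to 0.32 and rho -0.83 to 0.38 over the 6 pairs in the core (n = 8), and r was -0.64 to 0.43 and rho -0.62 to 0.43 in the shell (n = 8). The lowest adjusted exact permutation p over these 12 pairs was 0.476 for r and 0.185 for rho. The lowest r and rho in the core were those of Th and Slc18a2, with exact permutation p = 0.0442 and 0.0154 unadjusted. Without the 2 libraries farthest from the median, r was -0.77 to 0.94 in the core and -0.74 to 0.19 in the shell (n = 6).

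Of the ratios to Th across these 7 VTA libraries, that of Ddc varied least. Ddc was at 0.318 to 0.371 of the Th count, Slc6a3 at 1.05 to 1.55 and Slc18a2 at 0.259 to 0.352. In the library of rat 2 the ratio of Ddc was 0.992, far over the others, while those of Slc6a3, at 1.06, and Slc18a2, at 0.205, were inside and below their range.

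Rat 2 of cross A, injected with nicotine, had a VTA library in which Th was at 2.45%, Slc6a3 at 2.09%, Slc18a2 at 1.66% and Ddc at 6.81% of the median of the 7 others. In CPM these were 19.7 for Th, 20.9 for Slc6a3, 4.01 for Slc18a2 and 19.5 for Ddc. The lowest of the other 7 libraries exceeded it 27.5-fold for Th, 33.6-fold for Slc6a3, 39.6-fold for Slc18a2 and 9.55-fold for Ddc. It was still above the NAc. Over the shell median, Slc6a3 was 54.2-fold, Th 10.1-fold, Slc18a2 2.17-fold and Ddc 1.46-fold. Over the core median, Slc18a2 was 14.6-fold, Th 11.4-fold and Ddc 1.48-fold, and no fold is given for Slc6a3, whose core median of 0.137 CPM was under 3 counts. All 4 genes lay below all 7 other VTA libraries, as did 24.5% of all genes in that library, and 25% lay above all 7. In the NAc libraries of rat 2, Th was at 1.23 CPM in the core and 2.03 CPM in the shell, inside the range of the other rats, while Slc18a2 in the core was the highest of 8 libraries, at 28 counts against 1 to 9 in the others.

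Most other genes tied to midbrain dopamine neurons were low in that library as well. Gch1, which encodes the rate-limiting enzyme of tetrahydrobiopterin synthesis, was at 1.06 CPM, 5.17% of the median of the others (11.6 to 26.4 CPM). The 4 other measured genes of cofactor supply were less reduced, at 64.9% (Gchfr), 69.3% (Qdpr), 71.6% (Pts) and 72.4% (Pcbd1), and 4 of the 5 lay below all 7 other libraries. The transcription factor genes Pitx3 (4.11%), En2 (5.31%), Foxa2 (7.17%) and Lmx1a (17.0%) were low, while Nr4a2 was at 93.5% and Otx2 at 215%, so 4 of 6 measured lay below all 7 other libraries. Among 7 other genes of dopamine neurons, 5 lay below all 7 other libraries, among them Dlk1 at 4.23%, the neurotensin receptor Ntsr1 at 10.1% and the GDNF receptor Ret at 13.0%, while Calb1 was just below the others at 87.3%. The dopamine receptor Drd2, which dopamine neurons carry as an autoreceptor, was at 14.2%, while Drd1 was at 215%, above all 7 others, and Drd3 was at 0 counts, so that 1 of the 3 measured receptor genes lay below all 7 and 1 above. Genes that were high in the VTA as a class (61 genes at 1 CPM or more and at least 16-fold over both NAc medians in the rats other than rat 2) had a median of 13.4% in that library and ran from 0% to 979.9%. The 4 genes are among the 61, of which 8 lay lower than Slc18a2, 9 lower than Slc6a3, 10 lower than Th and 21 lower than Ddc. Slc17a6, the vesicular glutamate transporter of midbrain glutamate neurons, was at 204 CPM, above the 81.5 to 161 CPM of the others, and Gad1 of GABA neurons was at 94.3%. The glutamate and GABA neuron list (4 of 6 measured) summed to 601 CPM against 372 to 627 in the others.

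Summed markers of glia were lower in the VTA library of rat 2 than in the others, although 2 of 5 astrocyte genes and 2 of 4 oligodendrocyte genes were not below all 7, and some markers of other neurons were higher; the values are sums of CPM over a list. Astrocyte markers (5 of 5 measured) were at 2065 against 3416 to 4644 in the other VTA libraries, and oligodendrocyte markers (4 of 6) at 21516 against 24013 to 48658. Microglia markers (2 of 3) were at 84.6 against 147 to 183. Striatal projection neuron markers (7 of 9) were at 315 against 159 to 291, far under the 1898 to 3917 of the NAc libraries, and 4 of the 7 lay above all 7 others, led by Bcl11b at 72.1 against 5.38 to 12.3 CPM. Prox1, the single measured marker of 4 for cortical and hippocampal glutamate neurons, was at 46.3 against 15.3 to 29.7 CPM. Cholinergic markers (2 of 2) were at 7.74 against 0 to 7.10, and hypothalamic neuron markers (5 of 6) at 6.90 against 4.32 to 16.9. The single measured endothelial marker of 3, Cldn5, was at 115 against 126 to 166 CPM, and the single measured gene of 9 for other monoamine neurons, Tph1, at 2.95 against 1.01 to 2.43 CPM. Choroid plexus markers (3 of 4) were at 2663, where 6 of the other libraries were low but that of rat 1 was higher still, since Ttr, the transthyretin gene of the choroid plexus, was at 15177 CPM in rat 1, 2626 CPM in rat 2 and at most 3.25 CPM in the other 6 VTA libraries. Rat 1 was also the lowest of the 7 for 3 of the 4 genes. The part of these cell types in the low levels of rat 2 was not tested.

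**Figure D4:**
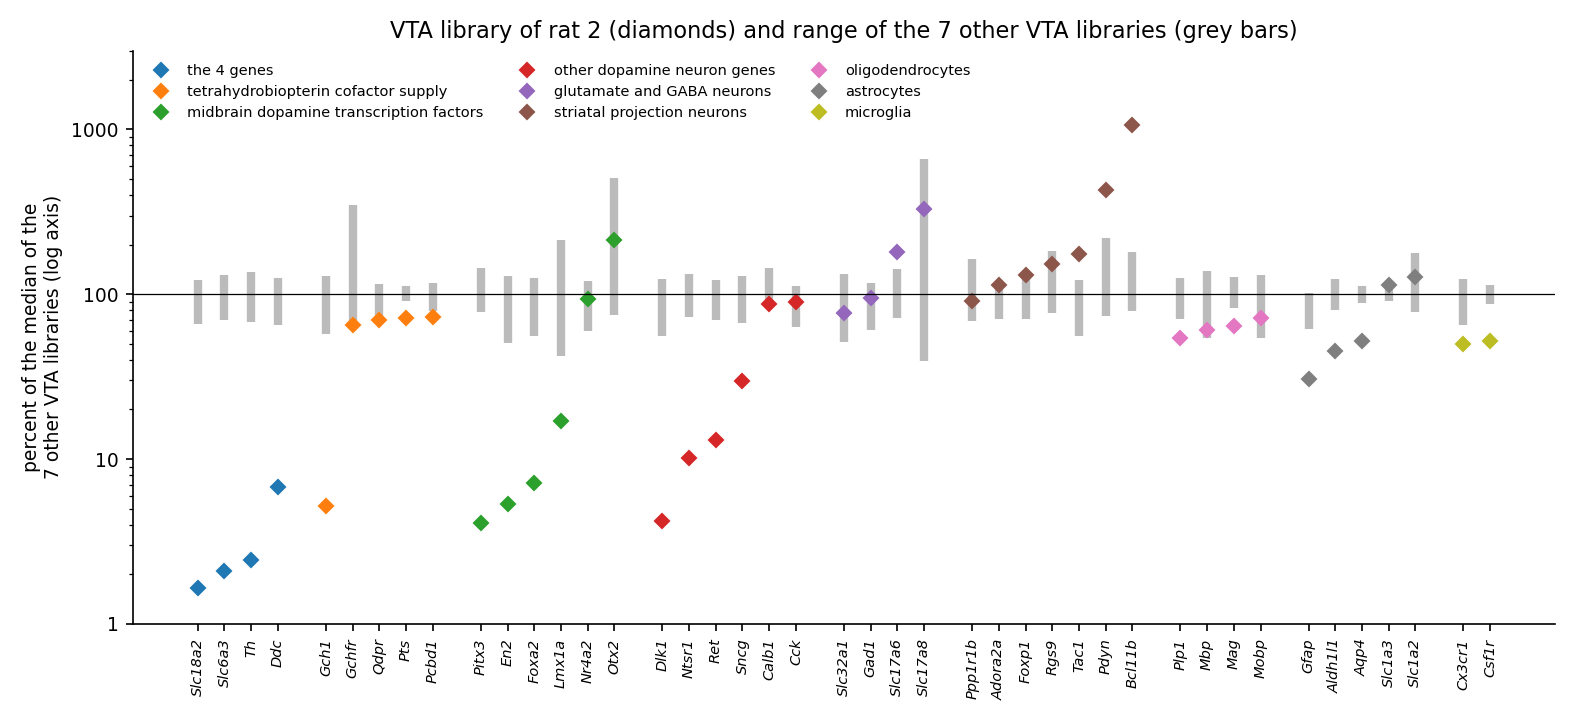
Level of named genes in the VTA library of rat 2 (diamonds) as percent of their median in the 7 other VTA libraries, whose range is drawn as grey bars (log axis), grouped by list. The 4 genes lie at 1.66% to 6.81%, with Gch1, Dlk1 and Pitx3 close to them, while genes of glutamate, GABA and striatal neurons lie at 76.7% and above.

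The genes around dopamine synthesis were followed as lists. Of the 5 measured genes that make or recycle tetrahydrobiopterin (Gch1, Gchfr, Pts, Qdpr and Pcbd1, of 6 listed), all 5 were called higher in the VTA than in the core and than in the shell, with a median log2 difference of 1.298 and 1.20 where that over all genes was 0.01 and 0.02. Beside the list counts stand the 31.1% (core) and 30.5% (shell) of all genes called higher in the VTA, and the 30.7% and 29.3% called lower. Oligodendrocyte genes were higher in the VTA to a like extent, with 4 of 4 called higher (median 1.55 against the core and 1.74 against the shell). Of 5 astrocyte genes, 3 were called higher against either part (median 1.48 and 1.37). Called lower were 2 of the 5 against the core and 1 against the shell. Of 2 microglia genes, 1 was called higher than in the core and 2 than in the shell (median 0.37 and 0.52). All 7 striatal projection neuron genes were called lower (median -3.82 and -3.21). The part of these cells in the differences was not tested. Gch1 led the cofactor supply genes, at 4.91 against the core (edgeR adjusted p = 6.55e-08) and 4.57 against the shell (edgeR adjusted p = 3.04e-07). Of 6 measured midbrain transcription factor genes (10 listed), 5 were called higher in the VTA than in the core and 6 than in the shell. En2 differed by 9.47 (adjusted p = 8.4e-09) and Pitx3 by 6.41 (adjusted p = 9.61e-08) from the core, and Nr4a2 was lower in the VTA than in the core (-0.57, adjusted p = 0.0249) and higher than in the shell (2.04, adjusted p = 1.65e-08). Of 7 other dopamine neuron genes (12 listed), 4 were called higher against either part of the NAc, namely Ret, Ntsr1, Dlk1 and Sncg. Cck (-0.79, adjusted p = 0.000302) and Calb1 (-1.04, adjusted p = 4.34e-06) were called lower in the VTA than in the core, and neither was called against the shell (adjusted p = 0.392 and 0.292). Of the 3 measured dopamine receptor genes (5 listed), all 3 were called lower in the VTA than in the core, led by Drd1 at -6.23 (adjusted p = 5.65e-14), and Drd1 and Drd3 were called lower than in the shell, where Drd2 was at -0.52 (adjusted p = 0.112). The genes of dopamine breakdown, and 8 of 9 genes of other monoamine neurons, are not analysed here. The study's supplementary tables, from which symbols were taken, paired none of them with an ID.

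The genes whose pattern was most like that of the 4 were sought by Pearson's r of log2 CPM with the mean of the 4 standardised profiles, as a description. Over the 24 libraries, where r mostly reflects region and the library of rat 2, 885 of the 16285 other genes were above 0.9 and 4 above 0.99. The closest 5 were En2 (r = 0.995), Foxa2 (r = 0.994) and 3 genes with no paired symbol. Over the 7 VTA libraries other than that of rat 2, 53 genes were above 0.9, and the closest 5 were Cadps2 (r = 0.982), Ret (r = 0.981), Lmo3 (r = 0.970), Slc35g2 (r = 0.969) and 1 gene with no paired symbol. Cadps2 encodes a protein that acts in the release of dense-core vesicles, and Ret the receptor tyrosine kinase for GDNF family ligands. The 4 genes themselves had r of 0.933 to 0.987 with their own mean over those libraries. These libraries share their scaling and VTA makeup.

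The comparison of the crosses asked whether the direction of the cross was tied to the level of the dopamine genes. The strains of father and mother are exchanged together between the crosses, so the part of either parent cannot be told apart. In the VTA, Th was at 19.7, 543, 610 and 992 CPM in cross A and at 671, 803, 965 and 1088 CPM in cross B. The groups overlapped, since the highest cross A library lay above 3 of the cross B libraries. Slc6a3 was at 20.9, 703, 944 and 1126 CPM in cross A and at 703, 1003, 1140 and 1312 CPM in cross B. Ddc was at 19.5, 187, 197 and 325 CPM against 249.0, 287, 307 and 362 CPM, and Slc18a2 at 4.01, 159, 215 and 257 CPM against 211, 242, 259 and 295 CPM. For Th and Ddc, 3 of the cross A libraries lay below all of cross B. No gene of the 4 was called by edgeR (adjusted p 0.849 to 0.912), by an unadjusted p under 0.05, or by DESeq2; edgeR called 0% of all genes, and 5.7% had an unadjusted p under 0.05. The cross A minus cross B log2 differences were -0.69 ± 0.79 for Th, -0.72 ± 0.61 for Ddc, -0.56 ± 0.82 for Slc6a3 and -0.65 ± 0.81 for Slc18a2. Without rat 2 they were -0.29 ± 0.24, -0.34 ± 0.21, -0.16 ± 0.23 and -0.25 ± 0.17 (n = 3 and 4, edgeR adjusted p 0.682 to 0.837). Among saline-injected rats alone they were -0.16 to -0.31 (n = 2 and 2), and among nicotine-injected rats alone, which hold rat 2, -1.33 to -1.53 (n = 2 and 2), and none was called in either. With preparation batch as a covariate they were -1.99 to -2.74 with rat 2, whose batch held 1 other VTA library, and -0.32 to -0.47 without it, and none was called. Only the batch of rats 2 and 16 and that of rats 11, 13 and 15 held VTA libraries of both crosses. The values without rat 2 thus rest on rats 11 and 15 against rat 13. In the remaining rats cross and batch cannot be told apart. The choroid plexus markers, high in rats 1 and 2, differed along with the crosses. All 3 measured had an unadjusted p under 0.05 in edgeR, with a median log2 difference of 5.44 and an adjusted p of 0.812 each. Their part in the differences was not tested.

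In the NAc core the crosses did not differ past the threshold either, with adjusted p of 0.521 to 0.978 in edgeR, where 0.0184% of genes were called. Ddc had an unadjusted p of 0.0427 there, as did 9.36% of genes under 0.05, with 10.7 to 13.3 CPM in cross A and 12.4 to 16.1 CPM in cross B and a log2 difference of -0.29 ± 0.13. In the NAc shell, Slc6a3 was at 0.137 to 0.290 CPM (3 to 6 counts) in all 4 cross A libraries and at 0.482 to 0.804 CPM (10 to 16 counts) in all 4 cross B libraries. The groups did not overlap, as was so for 2.54% of genes, and the log2 difference was -1.42 ± 0.49 with an unadjusted p of 0.013 and an edgeR adjusted p of 0.995; 0.00614% of genes were called and 4% had an unadjusted p under 0.05. It was -1.23 to -1.59 without each rat in turn. The other genes had adjusted p of 0.995 in the shell. DESeq2 called none of the 4 in either part, and by its unadjusted p 1 of the 4 was under 0.05 in each part.

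The injection on days 1 to 4 was compared in the same way. In the VTA, Th was at 19.7, 543, 671 and 965 CPM in NIC rats and at 610, 803, 992 and 1088 CPM in SAL rats. Slc6a3 was at 20.9, 703, 703 and 1140 CPM in NIC and at 944, 1003, 1126 and 1312 CPM in SAL, so 3 NIC libraries lay below all SAL libraries. None of the 4 genes was called, with an edgeR adjusted p of 1 for each, no unadjusted p under 0.05 and none by DESeq2, where 0% of genes were called by edgeR and 2.03% had an unadjusted p under 0.05. The NIC minus SAL log2 difference was -0.64 ± 0.62 for Ddc to -0.79 ± 0.79 for Slc6a3, and without rat 2 it was -0.26 ± 0.22 for Ddc to -0.39 ± 0.20 for Slc6a3 (adjusted p = 1). NIC and SAL libraries came from different preparation batches, apart from rats 2 and 16 in the VTA, so batch and injection cannot be told apart. Rats 1 and 2 were both nicotine-injected, and the choroid plexus markers differed here too, with all 3 at an unadjusted p under 0.05 in edgeR, a median log2 difference of 5.62 and an adjusted p of 1 each. Their part was not tested. In the NAc core (0% of genes called, 6.39% with an unadjusted p under 0.05) and the NAc shell (0% and 2.95%) none of the 4 was called by edgeR or DESeq2 or had an unadjusted p under 0.05. Their log2 differences were -0.65 to 0.61 in the core and -0.42 to 0.31 in the shell. The ratios of Ddc, Slc6a3 and Slc18a2 to Th in the VTA did not differ past the threshold between crosses (exact permutation adjusted p = 0.8286 for each) or injections (exact permutation adjusted p 0.429 to 0.486), where 4 against 4 cannot give a raw p below 0.0286.

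**Figure D5:**
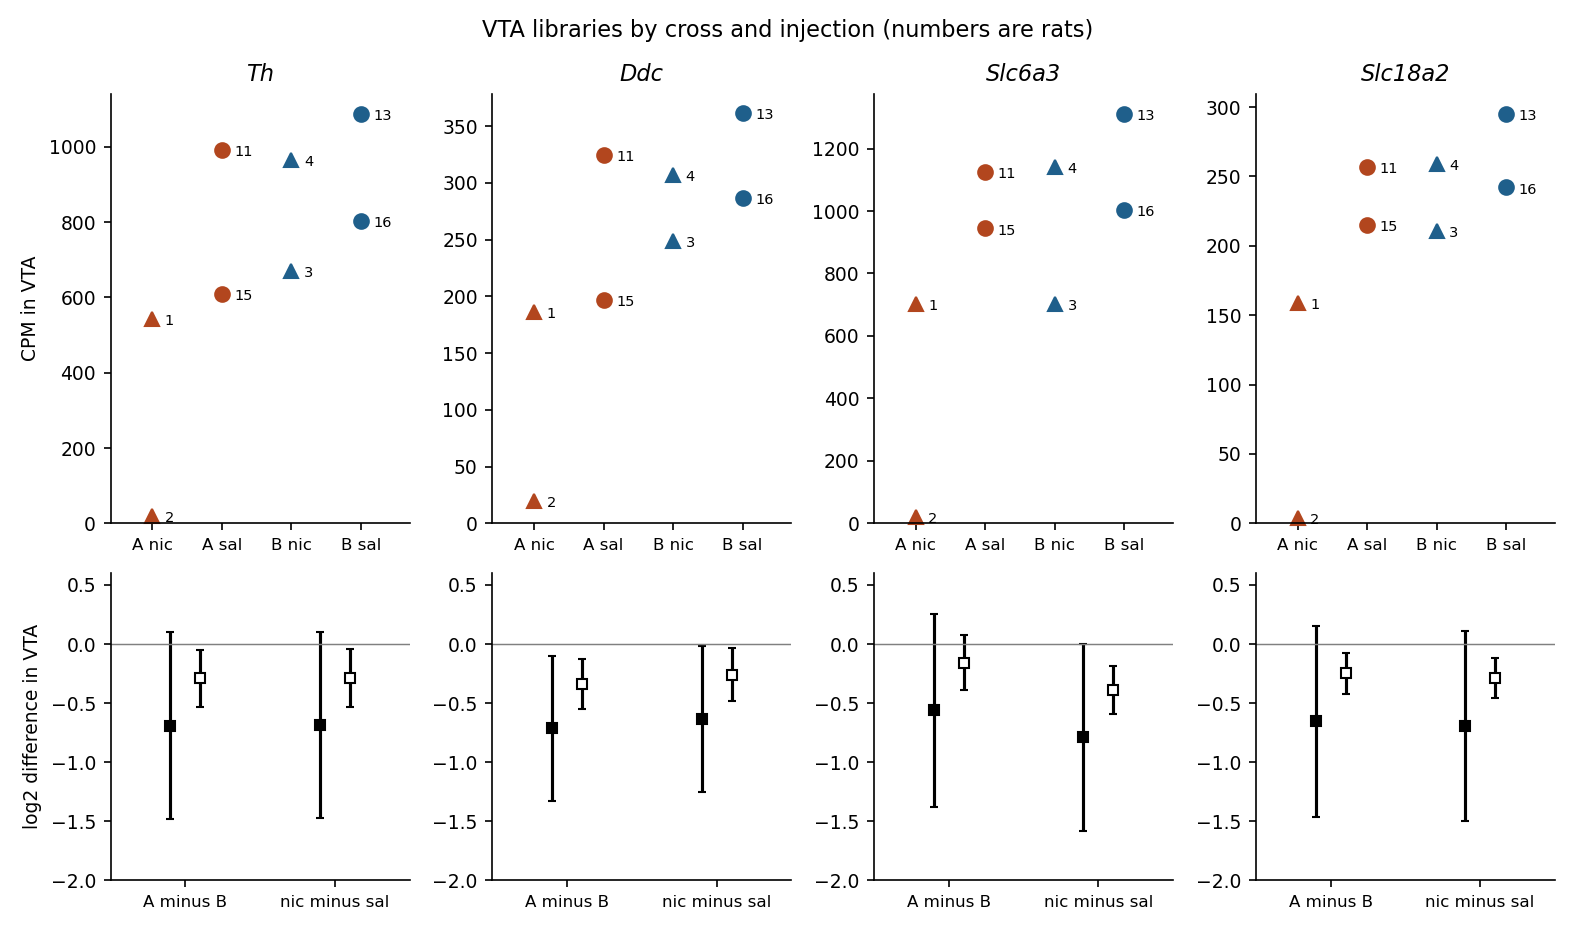
Top, CPM of each gene in the 8 VTA libraries by cross (A, B) and injection (nic, sal), with rat numbers; bottom, log2 difference between crosses and between injections with its standard error, for all rats (filled) and without rat 2 (open). The standard errors are smaller without rat 2, where all differences lie between -0.39 and -0.16.

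Whether the cross difference depended on injection or region was tested by interaction terms. In the VTA the term was -1.30 ± 1.60 for Th, -1.11 ± 1.18 for Ddc, -1.18 ± 1.66 for Slc6a3 and -1.33 ± 1.65 for Slc18a2, and none was called (edgeR adjusted p 0.935 to 0.953, 0% of genes called). Without rat 1, the cross A nicotine arm was rat 2 alone, and all 4 were then called at -3.51 (Ddc) to -5.68 (Slc18a2), where 0.841% of genes were called and 0.307% were called below 0, on the assumption that a lone library varies like the others. Without rat 2 the same terms were -0.22 to -0.37, and none was called. No gene of the 4 was called in the NAc core (0.00614% of genes called) or the NAc shell (0.35%), nor for cross by region in any pair of regions, where 0% of genes were called in each. For all 6 interactions none of the 4 had an unadjusted p under 0.05, and DESeq2 called none.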

How the data were processed

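RNA-seq was made from the VTA, NAc core and NAc shell of 8 rats, 24 libraries in all. The deposited values are estimated counts per gene: the authors trimmed reads with fastp 0.20.0, quantified them with Salmon 0.12.0 against version 6 of the rat genome Rnor, and summarised them by gene with tximport. They were whole numbers as deposited. Counts were scaled by TMM over all 24 libraries, and filtered to genes with a normalised count over 10 in at least 3 libraries. This kept 16289 of 17323 genes and 99.98% of counts. The lowest total of a gene in the table was 13 counts, so the table had been filtered before. No column was without a sample (0 columns).

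Comparisons were fitted over all genes with edgeR 4.0.16 (R 4.3.3), quasi-likelihood test, with Benjamini-Hochberg adjustment and without covariates, and DESeq2 1.42.0 was an alternative. The standard errors of edgeR differences were derived from the test, as the absolute log2 difference over the square root of its F statistic. Other alternatives were median-ratio factors, no filter, each rat left out, batch or injection as covariate and rat as a block. Ratios to Th (0.5 counts added) and correlations had exact permutation tests (SciPy 1.17.1, Python 3.11.15). Scripts were tested on simulated data. The genes named were the 4, the lists of marker and pathway genes, and the 5 genes most like the 4. The members and lists were chosen with earlier results of these data known. Symbols came from ID and symbol pairs in the study's supplementary tables, which list partly genes selected on these libraries, so that 56 of 94 list genes could be used. Values of some list genes are not reported here.

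Samples from different regions were paired by the rat they came from. The deviations from group means of 1 rat's libraries correlated at -0.01 to 0.18 between VTA and NAc core, at -0.07 to 0.13 between VTA and NAc shell and at -0.11 to 0.12 between core and shell, so the pairing rests on the shared rat. Depth was 17563458 to 24405856 counts per library, and statements on NAc levels of a few counts carry counting error only.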

Additional observations from a re-analysis of the deposited data

Results flagged for a closer look

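The VTA library of rat 2 lay farther from the other libraries than the spread of the rest allows at the 95% level, read on log2 CPM. Among all 8 VTA libraries this was so for Th at 19.7 CPM, Ddc at 19.5 CPM, Slc6a3 at 20.9 CPM and Slc18a2 at 4.01 CPM. Among the 4 VTA libraries of cross A, and among the 4 of nicotine-injected rats, it was so for Th at 19.7 CPM, Slc6a3 at 20.9 CPM and Slc18a2 at 4.01 CPM. In the NAc shell, Ddc of rat 3 was at 16.3 CPM and stood apart from the 3 other nicotine-injected rats, which were at 11.7 to 12.3 CPM. Among all 8 shell libraries it did not stand apart, since rat 13 was as high. These were 11 of 60 groups of values examined (4 genes in 3 regions, over all rats, each cross and each injection), and chance alone flags about 1 in 20 groups, or 3 of 60. The 10 flags of rat 2 are 1 library seen through 4 genes that vary together and through groups that share rats, so they are not independent.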

How the results depend on the processing

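Differential expression calls of the 4 genes between regions kept their direction and their side of the threshold under every alternative, and counts of members called kept theirs apart from 2 cases. Of the 3 ratios to Th called between VTA and shell, 2 stayed called when any of rats 2, 3, 4, 11, 13 or 15 was left out. Without rat 1, the cross by injection term in the VTA called 4 members where the fit on all rats called 0, with rat 2 then alone in its arm and 0.841% of all genes called. With rat as a replicate block, to use the pairing of regions, VTA minus core was 8.50 for Th, 3.95 for Ddc, 11.87 for Slc6a3 and 8.75 for Slc18a2, and the block changed no call. It turned the cross by region term of Slc18a2 between core and shell to -0.33.

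Differences that did not pass the test turned direction as follows, on the log2 scale. The range over rats left out in turn was -0.090 to 0.011 for Ddc between core and shell. For cross in the core it was -0.24 to 1.295 for Slc6a3 and -0.34 to 1.41 for Slc18a2. For injection it was -0.18 to 0.22 (Th) and -1.07 to 0.99 (Slc18a2) in the core, and -0.40 to 0.021 (Th), -0.14 to 0.60 (Slc6a3) and -0.76 to 0.072 (Slc18a2) in the shell. For cross by injection it was -0.85 to 0.37 (Th), -0.036 to 0.28 (Ddc) and -4.65 to 1.70 (Slc6a3) in the core, and -0.22 to 0.71 (Th) and -0.27 to 0.14 (Ddc) in the shell. For cross by region it was -2.32 to 0.075 for Slc18a2 between VTA and core, and -0.19 to 0.029 (Ddc) and -1.23 to 0.77 (Slc18a2) between core and shell. For cross in the VTA it was -0.056 to 0.48 for the ratio of Ddc to Th, -0.0099 to 0.17 for that of Slc6a3 and -0.21 to 0.053 for that of Slc18a2. The cross difference in the core became -0.031 for Slc6a3 with injection as a covariate and -2.20 in nicotine-injected rats alone. For Slc18a2 it became -0.83 both with batch as a covariate and in saline-injected rats alone. In the core, only the batch of the saline-injected rats held both crosses. The cause was not tested. Slc6a3 and Slc18a2 in the NAc rest on few counts, which limits what these libraries can show there.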
